A study of Mus musculus with 18 samples.

Results

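Semaphorins, their plexin and neuropilin receptors and the collapsin response mediator proteins (CRMPs) that act downstream were followed in donor T cells recovered from mice after haematopoietic stem cell transplantation (HSCT). The genes were chosen by symbol: semaphorins of classes 3 to 7, plexins A to D, Nrp1, Nrp2, Crmp1, Dpysl2 to Dpysl5 and Plxdc1, which gave 37 of the 46073 genes in the deposited count table. The rule reads no measured value. The gene family was nevertheless proposed with earlier results of these data known, and which comparison drew attention to it is not recorded, so every count and adjusted p below describes these libraries and is not independent evidence. Of the 37 genes, 29 passed the filter on low counts and were tested, and 8 did not.

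Semaphorins are secreted or membrane-bound ligands first known for steering growing axons. They signal through plexins, whose intracellular part acts on small GTPases of the Ras family, and the secreted class 3 members mostly need a neuropilin as co-receptor. CRMPs bind tubulin and pass the signal to the cytoskeleton. In the immune system, semaphorins of classes 4 and 7 are made by lymphocytes and myeloid cells and act in T cell priming and migration, and Nrp1 is widely used in mice as a surface marker of thymus-derived regulatory T cells.

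Spleen T cells of C57BL/6 (CD45.2) donors, either wild type (WT) or lacking Wapl (KO), a factor that releases the cohesin ring from chromosomes, were given with 5000000 T cell-depleted marrow cells to irradiated CD45.1 mice. Syngeneic recipients, B6.SJL-Ptprca Pepcb/BoyJ, had received 9.5 Gy and 8500000 T cells. Allogeneic recipients had received 8 Gy and 1000000 T cells, and are named CByJ.SJL(B6)-Ptprca/J in the protocol and BALB/c in the sample labels. On day 7, live CD3+ CD45.2+ cells were sorted from recipient spleens, and ribosomal RNA-depleted libraries were made from 100 ng of RNA, with 3 libraries in each of the 4 groups and 2 to 4 mice pooled per library. Mice were 8 to 12 weeks old. The Cre driver and the deleted Wapl exons are not given in the sources used here. Recipient strain, radiation dose and T cell number differ together between the syngeneic and allogeneic groups and cannot be told apart. The labels of the syngeneic KO libraries also name CByJ.SJL(B6)-Ptprca/J as the recipient, against the protocol and against their own transplant label, so a difference of recipient strain between syngeneic KO and syngeneic WT cannot be told apart from genotype. Another 6 libraries, from untransplanted mice, were not analysed here.

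The 12 libraries held 45965645 to 89007094 counts. Levels are given in counts per 1000000 counts (CPM), normalised for library composition. Where 4 group means follow one another, the syngeneic pair comes first, and WT precedes KO within each pair. Cd3e stood at 359 to 715 CPM and Trac at 401 to 667 CPM in all libraries, Cd4 at 156 to 458 CPM and Cd8a at 319 to 801 CPM. Wapal, the gene of the targeted factor, had group means of 188 ± 20.8, 135 ± 6.29, 161 ± 6.80 and 140 ± 14.6 CPM (SD, n = 3). It was lower in syngeneic KO (log2 fold change -0.48 ± 0.11 SE, edgeR adjusted p = 0.0368) and its difference after allogeneic transplant did not pass the test (-0.20 ± 0.11, edgeR adjusted p = 0.963), and the libraries labelled KO still held counts of the whole gene. Ribosomal RNA genes took 20.2 to 23.1% of counts in syngeneic WT and 24.0 to 32.1% in syngeneic KO libraries. They took 8.27 to 17.8% in allogeneic WT and 16.1 to 18.0% in allogeneic KO libraries, so all syngeneic shares lay above all allogeneic ones. The library of syngeneic KO replicate 1, with the highest of these shares, stood apart on the second principal component, which held 18.2% of the variance.

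Together the 37 genes summed to 1110 to 1387 CPM in the 6 syngeneic libraries and to 1747 to 2091 CPM in the 6 allogeneic libraries, with no overlap. Abundant genes weigh most in this sum. Sema4d alone averaged 521 CPM in syngeneic WT and 843 CPM in allogeneic WT libraries. Per kilobase of exon, the order was led in all groups by Sema4d, Sema4a and Dpysl2. In syngeneic WT cells Sema4d averaged 67.8 ± 9.42 CPM per kilobase, Sema4a 43.1 ± 6.58 and Dpysl2 38.7 ± 4.50 (SD, n = 3), and the latter 2 did not differ beyond their spread. Sema4b followed at 16.1 ± 0.353, Sema4f at 6.08 ± 0.818 and Plxnc1 at 4.43 ± 0.417 CPM per kilobase. Nrp1 held the eighth place in syngeneic WT cells, at 2.64 ± 0.394 CPM per kilobase. In allogeneic WT cells it held the fourth, at 19.6 ± 2.41, beside Sema7a at 18.8 ± 1.88, from which it did not differ beyond the spread. Crmp1 was next at 9.96 ± 0.297, and Sema4b had moved down to the ninth place at 4.89 ± 0.453 CPM per kilobase.

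The comparison of allogeneic with syngeneic libraries asks how the family's expression differs in T cells that meet a foreign host. In WT cells 12 of the 29 tested genes rose and 7 fell, 19 in all, at an adjusted p under 0.05; over all 18447 tested genes the share called was 32.3% (16.4% higher and 15.9% lower). In KO cells 10 rose and 6 fell, 16 in all, where 24.4% of all genes were called (13.2% higher and 11.2% lower). Both comparisons, which share no library, called the same direction for 15 genes, of the 19 in WT and the 16 in KO cells, where 19.4% of all genes were called in the same direction in both: Crmp1, Dpysl2, Dpysl3, Nrp1, Plxdc1, Plxnc1, Plxnd1, Sema4c, Sema4d and Sema7a were higher after allogeneic transplant, and Nrp2, Sema3b, Sema4b, Sema4f and Sema4g were lower. The median size of change was 1.37 (log2) over the 29 genes and 0.46 over all genes in WT, and 1.09 against 0.40 in KO cells. With its sign, the median change of the 29 genes was -0.12 in WT and 0.02 in KO cells. Over all genes it was -0.03 and -0.02. The 2 groups did not overlap for 21 of the 29 genes in WT cells, against 55.7% of all genes, and for 17 in KO cells, against 33.6%. In these bulk samples, fewer cells of a type and less RNA per cell cannot be told apart. Red cell precursor genes summed to 2383 to 5643 CPM in syngeneic WT and 51.4 to 162 CPM in allogeneic WT libraries, with 13 of 14 tested genes lower. In KO cells their sums were 91.8 to 237 and 77.3 to 97.9 CPM, with 2 of 14 lower. The dendritic cell list summed to 80.1 to 89.4 CPM in syngeneic WT and 273 to 301 CPM in allogeneic WT libraries. Its sums in KO cells were 83.1 to 99.6 and 211 to 342 CPM. Of its 10 tested genes 3 were higher and 2 lower in WT, and 3 higher and none lower in KO cells. Natural killer cell genes summed to 387 to 486 and 1487 to 1973 CPM in WT cells, with 4 of 10 tested genes higher and 4 lower. In KO cells the sums were 452 to 640 and 1586 to 3135 CPM, again with 4 higher and 4 lower. Platelet and megakaryocyte sums were also higher after allogeneic transplant without overlap, but Itgb3 alone made up most of them. Itgb3 averaged 85.6 CPM in syngeneic WT and 201 CPM in allogeneic WT libraries. Of the 6 tested genes of that list 1 was higher and 1 lower in WT, and 1 higher and none lower in KO cells. B cell sums were higher without overlap in WT cells alone, where none of 13 tested genes was higher and 4 were lower. Endothelial and stromal sums were so in neither genotype. The part of these lists in the results was not tested.

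**Figure D1:**
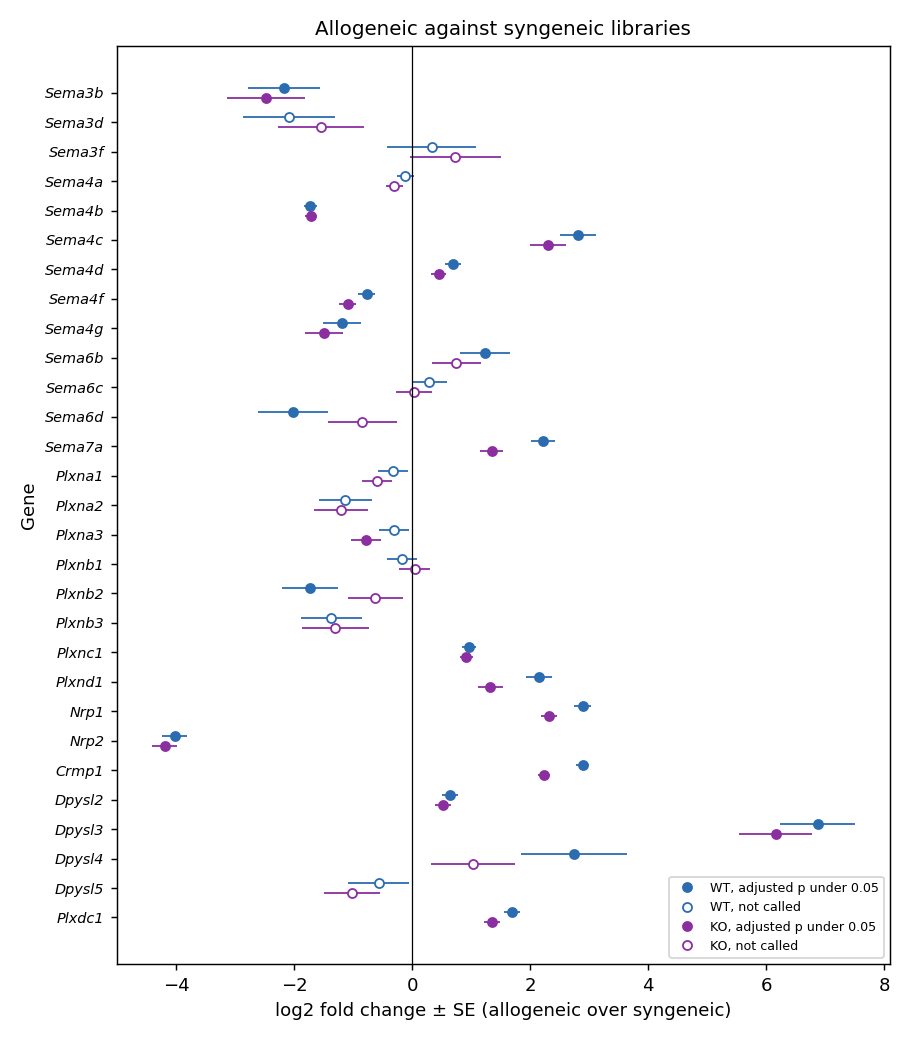
Log2 fold change with its standard error (horizontal axis) of the 29 tested genes (vertical axis, ordered by family) in allogeneic against syngeneic libraries, for WT and KO donors, with 3 libraries per group. Filled points passed an adjusted p of 0.05; Dpysl3 lies farthest to the right (6.87 in WT) and Nrp2 farthest to the left (-4.20 in KO).

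Among the ligands, the class 3 semaphorins, which are secreted, were close to absent. Sema3a, Sema3c, Sema3e and Sema3g did not pass the filter, and no library held more than 12 counts of any of them. Sema3b, Sema3d and Sema3f were tested at group means of at most 0.747 CPM. Sema3b counted 0.840, 0.770 and 0.630 CPM in the 3 syngeneic WT libraries and 0.0174, 0.224 and 0.237 CPM in the allogeneic WT libraries, a fall of -2.18 ± 0.61 (log2 ± SE). In KO cells it went from 0.241, 0.653 and 0.833 CPM to 0.0704, 0.0834 and 0.145 CPM, at -2.47 ± 0.66. The allogeneic groups lay below the syngeneic ones without overlap, on 1 to 22 counts per library. The KO call was lost without syngeneic KO replicate 3 (-2.11, edgeR adjusted p = 0.0586), allogeneic KO replicate 1 (-2.30, 0.0592) or allogeneic KO replicate 2 (-2.30, 0.0589), within 0.00307 to 0.0592 over all alternatives. Sema3d had group means of 0.208, 0.259, 0.0478 and 0.0809 CPM, and Sema3f 0.233, 0.192, 0.291 and 0.312 CPM; neither was called in any comparison.

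The class 4 semaphorins, which span the membrane, were all tested. Of the 6, 5 were called in the same direction in WT and KO cells, beside 19.4% of all genes, with 2 higher and 3 lower. Sema4d (CD100), which binds Plxnb1 and, on immune cells, Cd72, is the most abundant of them. It stood at 602, 463 and 498 CPM in syngeneic WT and at 791, 893 and 843 CPM in allogeneic WT libraries, a rise of 0.69 ± 0.13 (log2 ± SE). In KO cells it went from 596, 604 and 573 to 874, 727 and 821 CPM, at 0.45 ± 0.13. Every allogeneic library lay above every syngeneic library. The KO call did not hold without syngeneic KO replicate 2 (0.47, edgeR adjusted p = 0.0673), syngeneic KO replicate 3 (0.43, 0.0791) or allogeneic KO replicate 1 (0.39, 0.0764), within 0.00154 to 0.185 over all alternatives. Its receptor Cd72 had group means of 37.4, 41.8, 26.1 and 30.6 CPM, and it fell in WT cells (-0.52 ± 0.16).

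Sema4c, a ligand of Plxnb2, changed by more. It was near 1 CPM in syngeneic WT cells, with 1.06, 1.61 and 1.65 CPM, and 10.4, 10.1 and 10.0 CPM in allogeneic WT cells, 7.05-fold higher (log2 2.82 ± 0.31). In KO cells the libraries held 1.49, 1.39 and 3.15 CPM after syngeneic and 11.8, 9.51 and 8.48 CPM after allogeneic transplant, at 2.30 ± 0.30. The 6 allogeneic libraries lay above all 6 syngeneic ones. An exon of Sema4c overlaps D430040D24Rik in antisense direction. Whether counting used strand is not given in the sources used here, so reads of the 2 genes cannot be told apart there. The same holds for Plxna1 (Gm26811), Plxna4 (Plxna4os3) and Plxnb1 (Gm7628). On their own strand, exons of Nrp1 overlap Mir1903, those of Plxnc1 overlap Gm48718 and those of Sema4a overlap Mir7011.

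Sema4b, Sema4f and Sema4g went the other way. Sema4b stood at 93.0, 91.3 and 89.1 CPM in syngeneic WT libraries and at 29.7, 28.4 and 24.7 CPM in allogeneic WT libraries (-1.72 ± 0.11). The KO libraries held 70.0, 65.8 and 65.1 CPM and then 22.2, 18.5 and 20.7 CPM (-1.71 ± 0.11). The 4 groups of Sema4b did not overlap one another. Sema4f was 37.2, 29.7 and 29.7 CPM in syngeneic WT and 17.9, 20.3 and 18.3 CPM in allogeneic WT cells (-0.77 ± 0.14); in KO cells 34.7, 29.0 and 29.1 CPM stood against 13.3, 13.4 and 16.9 CPM (-1.09 ± 0.14). Its syngeneic values were all above its allogeneic ones. Sema4g held 2.15, 1.16 and 1.55 CPM in syngeneic WT and 0.521, 0.743 and 0.862 CPM in allogeneic WT libraries (-1.19 ± 0.32). In KO cells 1.39, 1.80 and 1.71 CPM stood against 0.610, 0.400 and 0.723 CPM (-1.49 ± 0.33). Its groups did not overlap in either genotype, but its WT call was lost without syngeneic WT replicate 1 (-0.93, edgeR adjusted p = 0.0593) or allogeneic WT replicate 1 (-1.01, 0.0601), within 0.00202 to 0.0601 over all alternatives. Sema4a, a costimulatory ligand of T cells, had group means of 233, 249, 214 and 202 CPM and was called in no comparison.

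Of the class 5 semaphorins, Sema5a and Sema5b, neither passed the filter, with at most 8 counts in a library. Among the 4 transmembrane class 6 members, Sema6a did not pass it either. Sema6b counted 0.949, 1.69 and 2.42 CPM in syngeneic WT and 5.01, 3.82 and 3.11 CPM in allogeneic WT libraries (1.24 ± 0.42). In KO cells it held 0.985, 2.01 and 3.39 CPM and then 3.80, 2.80 and 4.12 CPM, where the groups overlapped and the gene was not called. Sema6d, which binds Plxna1, counted 0.949, 3.13 and 2.37 CPM in syngeneic WT and 0.278, 0.356 and 0.963 CPM in allogeneic WT libraries (-2.02 ± 0.59), with 1 allogeneic library above the lowest syngeneic one. Its KO libraries held 0.623, 1.43 and 2.26 CPM and then 1.06, 0.500 and 0.854 CPM, also overlapping. Both WT calls were lost in several of the fits that left out 1 library, while the directions held. Without syngeneic WT replicate 2 the edgeR adjusted p was 0.105 for Sema6b (1.24) and 0.0887 for Sema6d (-1.64). Without allogeneic WT replicate 1 it was 0.126 for Sema6b (1.04) and 0.0806 for Sema6d (-1.72), and without allogeneic WT replicate 2 it was 0.0769 (1.27) and 0.0857 (-1.77). The Sema6b call further needed syngeneic WT replicate 1 (0.96, 0.122 without it) and allogeneic WT replicate 3 (1.38, 0.0528), and Sema6d was not called without syngeneic WT replicate 3 (-1.94, 0.0550). Over all alternatives the adjusted p ran from 0.0118 to 0.126 for Sema6b and from 0.00285 to 0.0887 for Sema6d. Sema6c averaged 0.739 to 0.913 CPM in the 4 groups and was called nowhere.

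Sema7a, the only class 7 member, is held to the membrane by a lipid anchor and binds Plxnc1 and the integrin of Itga1 and Itgb1. It stood at 14.8, 9.75 and 15.4 CPM in syngeneic WT and 57.6, 59.1 and 69.0 CPM in allogeneic WT libraries, 4.65-fold higher (2.22 ± 0.20). The syngeneic KO libraries held 21.5, 31.2 and 19.2 CPM and the allogeneic KO libraries 57.3, 67.6 and 58.3 CPM (1.35 ± 0.20). The 2 allogeneic groups lay together, and syngeneic KO lay between them and syngeneic WT.

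Both plexins without a close relative in the family rose. Plxnc1, a receptor of Sema7a, was at 33.0, 39.3 and 38.6 CPM in syngeneic WT and at 67.6, 75.2 and 73.6 CPM in allogeneic WT cells (0.96 ± 0.11). In KO cells 43.6, 46.5 and 40.6 CPM stood against 87.3, 73.0 and 86.7 CPM (0.92 ± 0.11). All 6 allogeneic values were above all 6 syngeneic ones. Plxnd1, a receptor for Sema3e and Sema4a, counted 9.85, 15.3 and 16.0 CPM in syngeneic WT and 54.1, 53.7 and 74.6 CPM in allogeneic WT libraries, 4.44-fold higher (2.15 ± 0.22). In KO cells it went from 25.4, 26.7 and 31.8 CPM to 89.7, 58.6 and 62.2 CPM (1.32 ± 0.21), again without overlap.

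The A and B plexins, receptors of the class 3, 4 and 6 ligands, were low. Of the 6 tested genes, 1 was called in WT cells (Plxnb2, beside 32.3% of all genes) and 1 in KO cells (Plxna3, beside 24.4%). Plxna3 was called lower in KO cells, from 2.81, 4.14 and 4.68 CPM to 2.74, 1.78 and 2.27 CPM (-0.78 ± 0.25; edgeR adjusted p = 0.0395). Its WT libraries held 2.91, 2.40 and 2.47 CPM and then 1.80, 2.03 and 2.47 CPM, which overlap, and the difference between the genotypes was not called. The KO call was lost in 4 of the 6 leave-one-out fits, without syngeneic KO replicate 2 (-0.72, edgeR adjusted p = 0.123) or 3 (-0.62, 0.151) and without allogeneic KO replicate 2 (-0.59, 0.151) or 3 (-0.78, 0.0646), within 0.0107 to 0.195 over all alternatives. Plxna4 did not pass the filter, with at most 27 counts in a library. Plxna1 had group means of 12.2, 13.0, 9.70 and 8.66 CPM, Plxna2 2.47, 1.67, 1.12 and 0.720 CPM, Plxnb1 2.45, 2.42, 2.17 and 2.50 CPM, and Plxnb3 0.324, 0.238, 0.121 and 0.0902 CPM. None of these 4 was called.

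Plxnb2, a receptor that macrophages also carry, counted 4.51, 12.3 and 11.3 CPM in syngeneic WT and 2.90, 2.06 and 3.55 CPM in allogeneic WT libraries. The KO libraries held 2.41, 6.15 and 10.0 CPM after syngeneic and 4.72, 3.15 and 4.22 CPM after allogeneic transplant. In WT cells the change was -1.73 ± 0.47 (edgeR adjusted p = 0.0152), and in KO cells it was not called. A list of 20 macrophage, monocyte and neutrophil genes summed to 283, 873 and 884 CPM in syngeneic WT and 529, 372 and 611 CPM in allogeneic WT libraries. In KO cells the sums were 40.0, 186 and 418 CPM after syngeneic and 248, 396 and 373 CPM after allogeneic transplant. No gene of that list was at 0 throughout a group, and all 20 were tested. Between transplants 1 was higher and 8 were lower in WT, and 3 were higher and none lower in KO cells. In each syngeneic group the library with the lowest sum also held the least Plxnb2 and Sema6d. In allogeneic WT the library with the highest sum held the most of both genes, but in allogeneic KO it held the least of both. The part of such cells in the Plxnb2 and Sema6d results was not tested. The Plxnb2 call was lost without syngeneic WT replicate 2 (-1.48, edgeR adjusted p = 0.0618) or 3 (-1.57, 0.0512) and without allogeneic WT replicate 1 (-1.74, 0.0509) or 2 (-1.53, 0.0678), within 0.000776 to 0.0678 over all alternatives.

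**Figure D2:**
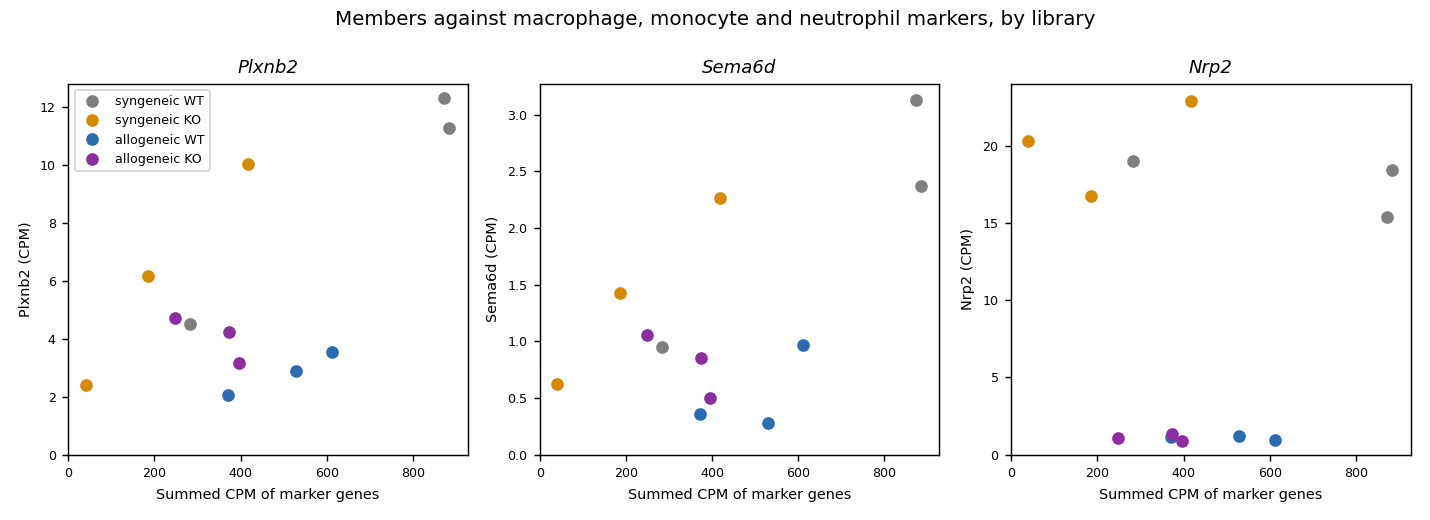
Plxnb2, Sema6d and Nrp2 in CPM (vertical axes) against the summed CPM of 20 macrophage, monocyte and neutrophil markers (horizontal axes), 1 point per library, coloured by group. In each syngeneic group Plxnb2 and Sema6d are lowest in the library where the markers are lowest, while Nrp2 stays between 15.4 and 22.9 CPM in all 6 syngeneic libraries.

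The 2 neuropilins, co-receptors of class 3 semaphorins and of vascular endothelial growth factors, changed in opposite directions. Nrp1 counted 22.0, 29.7 and 25.9 CPM in syngeneic WT and 169, 190 and 216 CPM in allogeneic WT libraries, 7.43-fold higher (2.89 ± 0.14). In KO cells 40.6, 36.0 and 42.1 CPM stood against 215, 194 and 186 CPM, 5.01-fold higher (2.33 ± 0.14). No allogeneic library was below 169 CPM of Nrp1 and no syngeneic library above 42.1 CPM. Nrp2 was at 19.0, 15.4 and 18.4 CPM in syngeneic WT and 1.18, 1.13 and 0.930 CPM in allogeneic WT libraries (-4.02 ± 0.21). The KO libraries held 20.3, 16.7 and 22.9 CPM and then 1.06, 0.851 and 1.35 CPM (-4.20 ± 0.21). No syngeneic library was below 15.4 CPM of Nrp2 and no allogeneic library above 1.35 CPM. Over all alternatives the changes stayed between 2.79 and 3.00 for Nrp1 and between -4.11 and -3.94 for Nrp2 in WT cells.

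Foxp3, the lineage factor of regulatory T cells, did not move with Nrp1. It had group means of 24.2, 30.7, 23.9 and 22.7 CPM, with a change of -0.02 ± 0.22 in WT and -0.44 ± 0.22 in KO cells. Ikzf2 (Helios), another gene of thymus-derived regulatory T cells, averaged 47.5, 56.7, 44.0 and 51.0 CPM. Of the 12 tested genes of the regulatory T cell list, 6 rose and 2 fell in WT cells, and 3 rose and 3 fell in KO cells. Those that rose in WT cells included Il10 (3.64 ± 0.51), Ctla4 (2.33 ± 0.29), Il2ra (2.20 ± 0.19) and Tnfrsf4 (2.14 ± 0.30). The 2 that fell there were Gpr83 (-2.43 ± 0.55) and Itgae (-1.26 ± 0.28). Il2ra and Ctla4 are also carried by other activated T cells. In a list of activated and effector T cell genes 14 of 15 tested genes rose in WT and 13 in KO cells, and in a list of naive T cell genes 9 of 12 fell in both. Lag3 rose by 4.59 ± 0.13 and Pdcd1 by 4.45 ± 0.25 in WT cells. The part of any T cell subset in the neuropilin results was not tested.

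Upstream stretches of the neuropilin genes and of Crmp1 are shown because these 3 genes had the smallest p in the WT comparison among the family and went in different directions. They are taken from RefSeq promoter windows (GRCm38.p6) and end 1 base before the RefSeq start, or at the first exon of the GENCODE model where that comes earlier. Capitals mark the GC box (GGGCGG, either strand, matches may overlap) and, in the second Crmp1 stretch, also an Egr motif (GCGNGGGCG), the first capital run. Nrp1 (chr8:128358823-128359072, plus strand) and the second Crmp1 start (chr5:37245514-37245763, plus strand) lie inside the GENCODE spans of their genes but outside their exons. Nrp2 (chr1:62703067-62703284, plus strand) and the first Crmp1 start (chr5:37241808-37241939, plus strand) lie upstream of theirs.
Nrp1: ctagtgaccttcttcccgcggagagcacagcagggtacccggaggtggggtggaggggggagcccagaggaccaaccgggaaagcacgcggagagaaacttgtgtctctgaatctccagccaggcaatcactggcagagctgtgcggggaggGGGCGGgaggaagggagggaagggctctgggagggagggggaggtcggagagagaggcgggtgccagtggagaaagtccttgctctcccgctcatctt
Nrp2: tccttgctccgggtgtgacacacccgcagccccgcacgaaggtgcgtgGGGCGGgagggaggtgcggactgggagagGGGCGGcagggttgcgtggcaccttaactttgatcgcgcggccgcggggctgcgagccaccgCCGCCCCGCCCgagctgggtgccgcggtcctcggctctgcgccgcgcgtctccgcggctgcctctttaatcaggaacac
Crmp1, first start: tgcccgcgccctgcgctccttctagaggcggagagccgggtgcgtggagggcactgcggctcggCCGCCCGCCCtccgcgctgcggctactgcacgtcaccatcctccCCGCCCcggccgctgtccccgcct
Crmp1, second start: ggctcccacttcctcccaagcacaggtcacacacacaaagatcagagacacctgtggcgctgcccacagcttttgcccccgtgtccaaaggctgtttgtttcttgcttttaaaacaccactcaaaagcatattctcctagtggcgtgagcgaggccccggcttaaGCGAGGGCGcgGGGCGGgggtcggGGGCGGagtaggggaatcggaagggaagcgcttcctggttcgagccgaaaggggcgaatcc
The Nrp1 stretch held 1 GC box, that of Nrp2 held 4, and the Crmp1 stretches held 3 and 2. Of the 37 genes, 28 had RefSeq promoter windows, 40 in all, and 75% of these held a GC box in the 250 bases before the start, against 32.7% of all 32851 windows. The median GC content was 63.8% in the family's windows and 52.4% in all. The Egr motif stood in 15.0% of the family's windows and 4.70% of all. An AP-1 motif (TGANTCA) stood in 7.50% against 6.75%, an NFAT motif (TGGAAA) in 12.5% against 18.6%, a Runx motif (TGTGGT) in 12.5% against 14.1% and a T-box motif (AGGTGTGA) in 0 of 40 against 1.12%, both strands searched. Genes that rose and genes that fell both held GC boxes, Nrp1 and Nrp2 among them. These matches describe letters, not binding.

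The CRMP genes went up or were not called. Crmp1 counted 9.82, 9.40 and 9.25 CPM in syngeneic WT and 69.3, 72.6 and 68.7 CPM in allogeneic WT libraries, 7.40-fold higher (2.89 ± 0.11). In KO cells 17.1, 14.9 and 17.6 CPM stood against 78.1, 82.1 and 73.9 CPM, 4.73-fold higher (2.24 ± 0.10). The 4 groups of Crmp1 did not overlap one another. Dpysl3 (CRMP4) went from near 0 to a clear signal, with 0.0622, 0.0856 and 0.136 CPM in syngeneic WT, on 4, 5 and 8 counts, against 7.20, 11.5 and 14.9 CPM in allogeneic WT libraries. The syngeneic KO libraries held 7, 13 and 0 counts and the allogeneic KO libraries 6.05, 10.9 and 10.2 CPM. The fitted changes, 6.87 ± 0.63 in WT and 6.16 ± 0.61 in KO cells, rest on these few syngeneic counts, whereas the allogeneic libraries held 258 to 1135 counts.

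Dpysl2 (CRMP2), the most abundant of the 5, rose by less. It stood at 198, 161 and 166 CPM in syngeneic WT and 263, 269 and 292 CPM in allogeneic WT cells (0.65 ± 0.13), and in KO cells 233, 211 and 204 CPM stood against 371, 279 and 287 CPM (0.53 ± 0.13). The allogeneic values were all higher. The KO call was lost without syngeneic KO replicate 2 (0.51, edgeR adjusted p = 0.0508) or 3 (0.49, 0.0502), within 0.000832 to 0.0876 over all alternatives. Dpysl4 (CRMP3) was called in WT cells on 0, 2 and 3 counts in syngeneic and 11, 11 and 18 counts in allogeneic libraries (2.75 ± 0.90, edgeR adjusted p = 0.0338). Its KO libraries overlapped, with 1, 10 and 15 counts after syngeneic and 16, 13 and 29 counts after allogeneic transplant. The WT call was lost when any of 5 libraries was left out. The edgeR adjusted p was 0.0969, 0.0874 and 0.0505 without syngeneic WT replicate 1, 2 and 3 (2.17, 2.91 and 3.44). It was 0.0651 and 0.113 without allogeneic WT replicate 1 and 3 (2.78 and 2.32). Over the 11 alternatives that tested Dpysl4 in WT the adjusted p ran from 0.0188 to 0.113. In fits of the WT libraries alone Dpysl4 did not pass the filter on low counts. Its WT test was thus made only because the KO libraries passed that filter. Dpysl5 (CRMP5) had group means of 0.294, 0.894, 0.202 and 0.444 CPM and was not called. Plxdc1, a plexin domain-containing receptor first described on tumour endothelium, is no plexin and was included by name. It counted 6.64, 6.35 and 6.83 CPM in syngeneic WT and 18.7, 22.9 and 22.4 CPM in allogeneic WT libraries (1.69 ± 0.14), and 9.75, 9.33 and 10.3 CPM against 26.9, 21.3 and 26.8 CPM in KO cells (1.35 ± 0.13). The 6 allogeneic values were all above the 6 syngeneic ones.

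**Figure D3:**
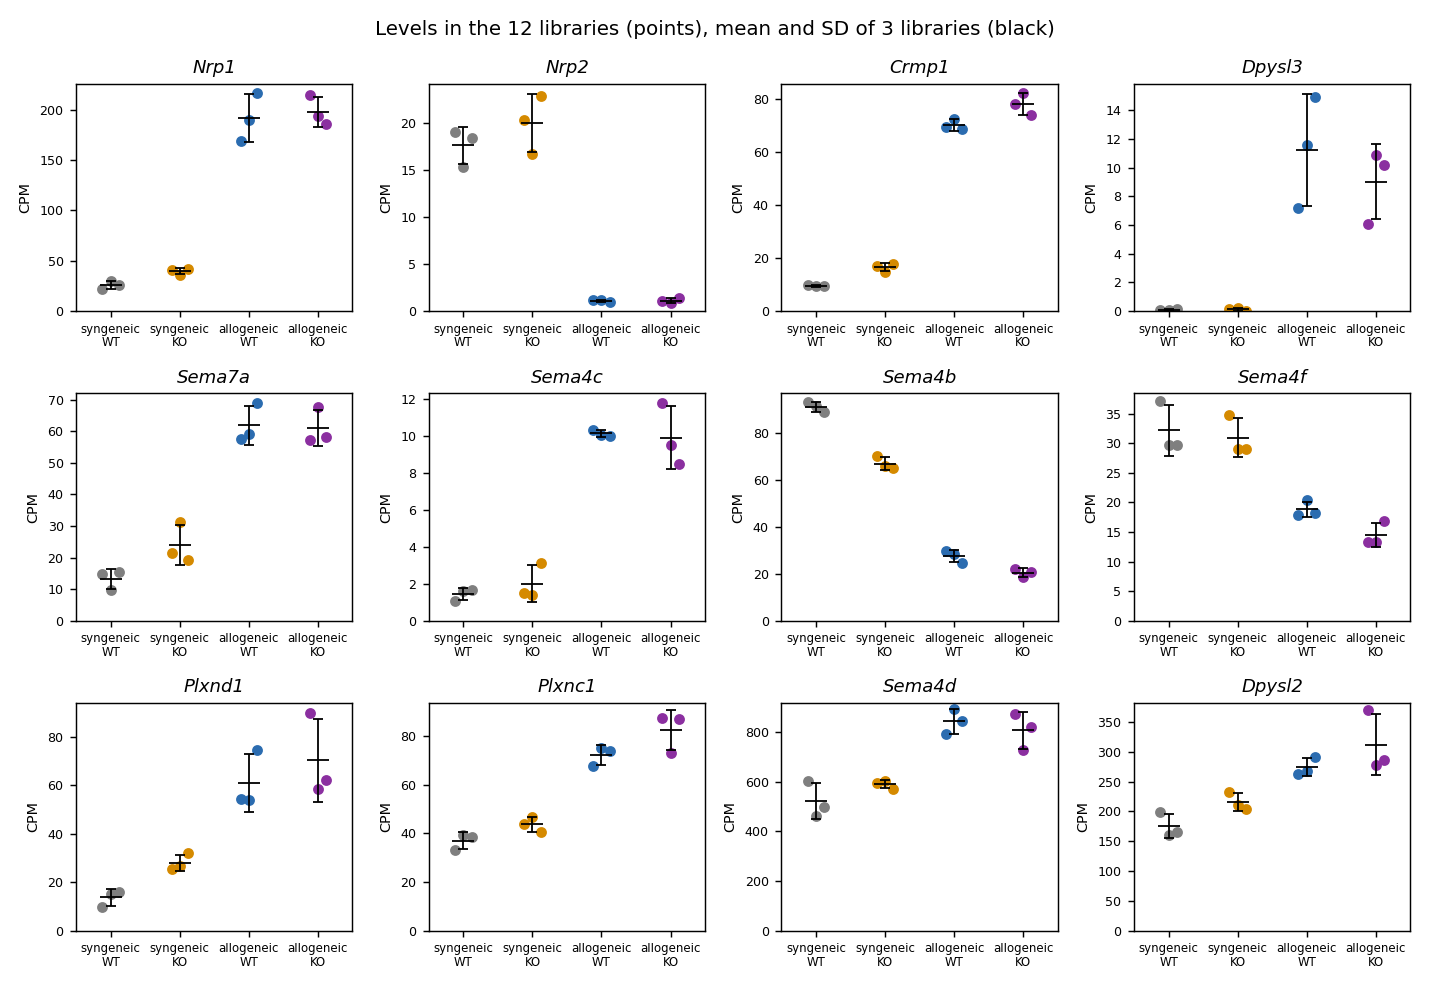
CPM (vertical axes, from 0) of 12 genes of the family in the 12 libraries, by group, with black bars for the mean and SD of 3 libraries. Nrp1 and Crmp1 are high and Nrp2 and Sema4b low in the allogeneic groups, and syngeneic KO lies between syngeneic WT and the allogeneic groups for Nrp1, Crmp1, Sema7a, Sema4b and Plxnd1.

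Other genes of the pathway were read from a list of 56 further receptors, ligands and intracellular effectors, of which 51 were tested. In WT cells 15 rose and 11 fell after allogeneic transplant, where 32.3% of all genes were called. In KO cells 11 rose and 9 fell, where 24.4% of all genes were called. Mical3 stands in the table in 2 rows and was counted in both. The genes with the smallest p in WT cells were Farp1, a plexin-linked exchange factor, at 2.65 ± 0.12, L1cam, a partner of neuropilin 1, at 2.55 ± 0.14, Plxdc2 at 3.17 ± 0.24, Itgb1 at 1.76 ± 0.14, and Mical3, a relative of the oxidoreductase that acts on actin downstream of plexins, at -2.80 ± 0.28 and -2.87 ± 0.31. In KO cells L1cam stood at 2.62 ± 0.14, Farp1 at 2.20 ± 0.12, Plxdc2 at 2.58 ± 0.24, Flt1, a receptor of vascular endothelial growth factor, at 4.84 ± 0.50, Itgb1 at 1.31 ± 0.14 and Dyrk2 at -1.30 ± 0.15. The Flt1 change rests on 0.181, 0.172 and 0.139 CPM in the syngeneic KO libraries, against 6.05, 4.69 and 3.57 CPM in the allogeneic KO libraries. Both integrin chains that bind Sema7a were higher beside their ligand. Itga1 had group means of 3.28, 2.89, 91.6 and 97.1 CPM, and Itgb1 of 248, 322, 837 and 800.2 CPM. The list's median change was 0.07 in WT and 0.09 in KO cells, beside -0.03 and -0.02 over all genes.

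KO and WT donors were compared after each transplant to ask what the loss of Wapl changes. After syngeneic transplant 6 of the 29 tested genes were called, 5 higher and 1 lower in KO, where 3.37% of all genes were called (0.743% higher and 2.63% lower). Crmp1 rose from a mean of 9.49 to 16.5 CPM (0.80 ± 0.10, edgeR adjusted p = 0.000788), Plxnd1 from 13.7 to 28.0 CPM (1.03 ± 0.21, 0.0186), Nrp1 from 25.8 to 39.5 CPM (0.61 ± 0.13, 0.0225), Sema7a from 13.3 to 24.0 CPM (0.85 ± 0.20, 0.0337) and Plxdc1 from 6.61 to 9.79 CPM (0.57 ± 0.13, 0.0365). Sema4b fell from 91.1 to 67.0 CPM (-0.44 ± 0.10, 0.0337). For each of these 6 genes the 3 KO libraries lay on 1 side of the 3 WT libraries, as they did for 9 of the 29 genes, against 23.3% of all genes. This comparison shares its syngeneic libraries with the comparisons of transplants above. Nrp2 averaged 17.6 ± 2.0 and 20.0 ± 3.1 CPM (SD, n = 3) in the 2 syngeneic groups, and was not called.

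Only the Crmp1 call held in each of the 6 fits that left out 1 syngeneic library (0.74 to 0.87, edgeR adjusted p 0.00152 to 0.00861). The number called was 3 without syngeneic WT replicate 1 or syngeneic KO replicate 1, and 2 without any of the other 4. Plxnd1 was lost without syngeneic WT replicate 2 (1.12, 0.0586) and syngeneic KO replicates 2 (1.07, 0.0582) and 3 (0.93, 0.0559). Nrp1 was lost without syngeneic WT replicates 1 (0.51, 0.0709) and 3 (0.61, 0.0994) and syngeneic KO replicates 1 (0.56, 0.0859) and 3 (0.57, 0.0735). Sema7a was lost without syngeneic WT replicates 2 (0.67, 0.156) and 3 (0.97, 0.0624) and syngeneic KO replicates 1 (0.89, 0.0525) and 2 (0.61, 0.156). Sema4b kept its call only without syngeneic KO replicate 1, with changes of -0.51 to -0.42, and Plxdc1 kept it in none, with changes of 0.53 to 0.60 and an edgeR adjusted p of 0.0744 to 0.165. The directions of all 6 genes held in each of these fits. With the replicate number as a block, Sema7a was not called, with an edgeR adjusted p of 0.0624 over all groups and 0.214 over the syngeneic libraries alone, against 0.00392 to 0.214 over its alternatives.

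Other measures differed between the same libraries. Red cell precursor genes summed to 2383 to 5643 CPM in syngeneic WT and 91.8 to 237 CPM in syngeneic KO libraries, with 10 of 14 tested genes lower in KO, and none of that list was at 0 throughout a group. Of the macrophage, monocyte and neutrophil list 7 of 20 were lower in KO. Of the activated and effector T cell list 6 of 15 were higher in KO, among them Lag3 (1.60 ± 0.12) and Pdcd1 (1.43 ± 0.22). Their part in the 6 calls was not tested. In the pathway list none of 51 tested genes was higher and 2 were lower in syngeneic KO. Arhgef12, an exchange factor bound by B plexins, stood at 41.8, 91.3 and 79.9 CPM in WT against 15.9, 19.3 and 25.3 CPM in KO libraries (-1.82 ± 0.29). Micall2 stood at 4.36, 20.1 and 17.4 CPM against 0.362, 1.31 and 2.42 CPM (-3.35 ± 0.69). Both were lowest in the WT library where the red cell and macrophage sums were lowest.

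After allogeneic transplant edgeR called none of the 29 genes between KO and WT, where 0.0542% of all genes were called; at an unadjusted p under 0.05 there were 3, against 4.18% of all genes, and DESeq2 called 1, against 0.417%. That gene was Sema4b, at 27.6 CPM in WT and 20.5 CPM in KO (-0.43 ± 0.11, edgeR adjusted p = 0.404; DESeq2 adjusted p = 0.00635); after syngeneic transplant its difference was -0.44 ± 0.10. KO and WT libraries did not overlap for Sema4b and Sema4f, which were lower in KO, and for Crmp1, which was higher, 3 of 29 genes against 7.66% of all genes. The differences of the other 5 genes called after syngeneic transplant were estimated here at 0.15 ± 0.10 for Crmp1, 0.05 ± 0.13 for Nrp1, 0.21 ± 0.21 for Plxnd1, -0.02 ± 0.19 for Sema7a and 0.23 ± 0.13 for Plxdc1. For Nrp1, Plxnd1 and Sema7a the sign turned when 1 allogeneic library was left out.

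**Figure D4:**
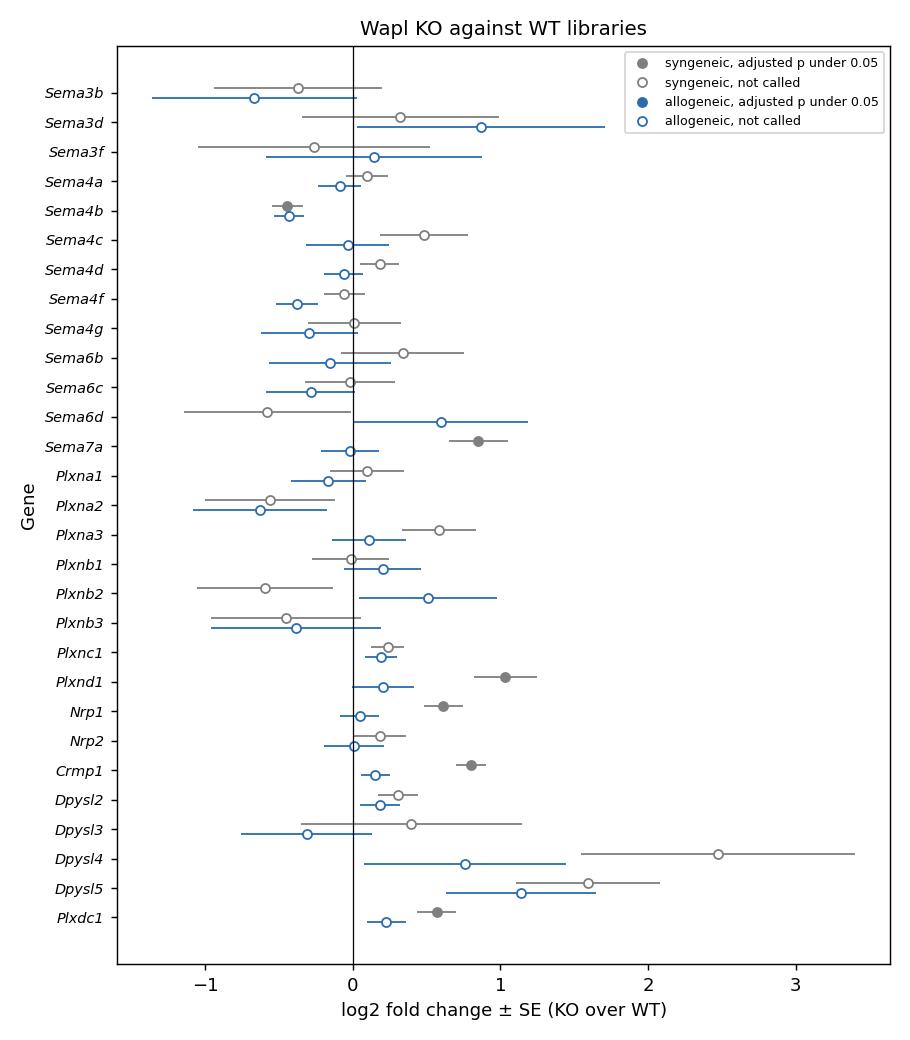
Log2 fold change with its standard error (horizontal axis) of the 29 tested genes (vertical axis) in KO against WT libraries, after syngeneic and after allogeneic transplant, with 3 libraries per group. The 6 filled points (adjusted p under 0.05) are all from the syngeneic comparison; none is from the allogeneic one.

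Whether the genotype difference itself depended on the transplant was tested by the interaction term. edgeR called none of the 29 genes, where 0.477% of all genes were called; at an unadjusted p under 0.05 there were 4, against 6.20% of all genes, and DESeq2 called 1, Crmp1, against 1.59%. Crmp1 stood at -0.65 ± 0.14 (edgeR adjusted p = 0.0766, 0.00126 in DESeq2, and 0.00126 to 0.276 over all alternatives). Sema7a stood at -0.87 ± 0.28, Plxnd1 at -0.82 ± 0.30 and Nrp1 at -0.57 ± 0.19, with an edgeR adjusted p of 0.357, 0.506 and 0.396. A negative value means that KO exceeded WT by less after allogeneic than after syngeneic transplant. So for none of the genes did edgeR show the KO difference to depend on the transplant. Sema4b, at 0.01 ± 0.15, had the smallest interaction of the 6 genes called after syngeneic transplant.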

How the data were processed

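RNA-seq of sorted donor T cells was read from the table of expected counts per gene deposited by the authors; 94.5 to 95.0% of values were whole numbers, and the rest were rounded. TopHat2 2.0.13, Bowtie2 2.2.1, Cufflinks and Cuffdiff 2.2.1 and the build GRCm38 are named in the submitters' processing notes, with no counting tool given. Another 6 columns match no label and were not used. Columns were matched to labels by the library identifier in the titles. edgeR 4.0.16 (R 4.3.3) fitted 12 libraries of 4 groups with TMM scaling, filterByExpr (minimum count 10), robust quasi-likelihood and Benjamini-Hochberg adjustment over 18447 genes; residual degrees of freedom were 8. CPM use TMM-scaled library sizes, and log2 fold changes carry the standard error implied by F. DESeq2 1.42.0 was an alternative, beside RLE scaling, no filter, no ribosomal RNA genes, fits within the groups compared, a replicate block and leaving out each library. The fit was tested on simulated counts. Replicates are independent pools per the series' design text.

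Members and lists were chosen with earlier results of these data known. Members called in any of the 5 comparisons are given with every library's value, other tested members by group means, and untested members by their highest count; of the pathway list, up to 6 called genes of smallest p are named in a comparison, and others named were chosen after their values were seen. Residuals of same-numbered syngeneic WT and KO libraries correlated at 0.170 to 0.545, all above 0.1, and those of unlike numbers at -0.501 to 0.363. These ranges overlap, so the residuals do not settle whether the numbers mark pairs. In the other pairs of groups, same-numbered libraries did not all correlate above 0.1. The main fit used no pairing, and the replicate block served as an alternative. Exon lengths and coordinates come from GENCODE M21 (GRCm38), which matched 45225 of 46073 identifiers, and promoters from RefSeq.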

Additional observations from a re-analysis of the deposited data

How the results depend on the processing

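Over 776 alternative values of 58 gene changes named in the report, 692 kept their direction and side of the threshold, 70 were no longer past it, 2 newly passed it and 12 changed sign. The number of genes called after allogeneic against syngeneic transplant was 14 to 21 in WT and 12 to 19 in KO cells over all alternatives. After syngeneic transplant the KO against WT count was 6, and 2 in a fit of those groups alone or 2 to 3 when 1 library was left out. With a replicate block added, the fit of those groups alone called 6 genes, Sema7a not among them. The cause of these differences was not tested. Without the filter the KO against WT count after syngeneic transplant was 4, with Plxdc1 and Sema4b at an edgeR adjusted p of 0.0705. DESeq2 called 1 gene against 0 in edgeR for KO against WT after allogeneic transplant (Sema4b) and 1 against 0 for the interaction (Crmp1); the cause was not tested. The changes of sign concern values near 0: the Sema4b interaction (-0.0025 without the filter, -0.059 to 0.10 with 1 library left out) and, for KO against WT after allogeneic transplant with 1 library left out, Nrp1 (-0.036 to 0.14), Plxnd1 (-0.0088 to 0.37) and Sema7a (-0.11 to 0.060). The replicate block over all groups called 21, 17, 5, 0 and 0 genes in the 5 comparisons, in the order of the report. Within the groups compared alone it called 19, 13, 6 and 0 genes in the first 4, and there Sema6b in WT (0.0529) and Dpysl2 (0.0876), Plxna3 (0.195) and Sema4d (0.185) in KO were not called, where the numbers share only a number; besides these and Sema7a it ended no call. The 8 genes that did not pass the filter had few counts, none above 27 in a library, so no difference was tested for them.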
